A study of Mus musculus with 124 samples.

Results

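The heavy chain variable (V) segments of mouse immunoglobulin, whose symbols start with Ighv, were described in sorted blood cells. All rows of the count table with such a symbol were taken, which gave 185 of 53465 genes. They carry 183 symbols, since Ighv1-13 and Ighv5-8 each stand for 2 identifiers. By the GENCODE M21 annotation (GRCm38) all lie on chromosome 12, at chr12:113572927-116010093, and 183 are on the minus strand. The annotation calls 113 of them V genes, 70 V pseudogenes and 2 LV genes, and the symbols fall into 16 families, of which Ighv1 has 93 members, Ighv5 22, Ighv8 16 and Ighv2 11.

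A developing B cell joins 1 V segment to a D and a J segment on the same chromosome, and the joined exon is read into the heavy chain mRNA together with a constant gene. Each mature B cell therefore transcribes mainly the V segment of its own receptor. In RNA from many B cells, the share of the Ighv counts on each segment depends on how many cells use that segment and on how much heavy chain mRNA each of them makes. In such bulk samples fewer cells of a type and less RNA per cell cannot be told apart. Plasma cells, which secrete antibody, hold far more heavy chain mRNA per cell than resting B cells do, and many of those in blood make IgA.

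The mice were CD1, an outbred stock. The series looks for RNA markers in blood common to alcohol exposure before birth and diabetes of the mother. For the exposure, EtOH at 25% in PBS was injected intraperitoneally at 4.0 g/kg on each of embryonic days 16 and 17, and PBS labels the other arm. For the diabetes model, dams were injected with streptozotocin at 150 mg/kg, and blood of the offspring was taken on postnatal days 35 to 40. Animals of both sexes were used. T cells, B cells and monocytes were sorted by flow cytometry. The labels do not explain CBM, and all CBM samples are batch 2 while all PBS and EtOH samples are batch 1, so CBM and batch cannot be told apart.

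Libraries numbered as repeats of 1 sample were summed, which left 29 B cell samples (8 PBS, 8 EtOH and 13 CBM), 27 T cell samples (6, 9 and 12) and 29 monocyte samples (8, 8 and 13). Total depth differed between B cell samples, whose Ighv counts numbered 1010 (CBM10) to 7666 (CBM3) among totals of 1.18 to 6.89 M (1e6) counts. B cell markers summed to between 9762 and 19638 CPM (gene counts scaled to the same total in every sample, per 1e6) in the B cell samples, and the 6 T cell markers to between 20.3 and 107 CPM. The 6 monocyte markers summed there to between 117 and 2250 CPM and the 4 neutrophil markers to between 29.6 and 2501 CPM. Levels of Xist and Y-linked genes went against the sex label in 4 B cell samples, namely JS16, JS18 and JS21 of PBS and JS33 of EtOH. One T cell sample of EtOH, JS29, had the summed markers of monocytes (24956 CPM), and 1 monocyte sample of PBS, JS17, those of T cells (3970 CPM). The labels do not say that samples are separate animals, so the p-values speak of sample-to-sample spread alone, which may be technical.

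The ends of 5 V segments are shown because they hold 4 of the most used segments (Ighv5-17, Ighv3-6, Ighv7-3 and Ighv5-6) and the most used pseudogene (Ighv1-14). They are the last 60 bases of the GENCODE M21 transcripts, all on the minus strand of GRCm38. Capitals mark the motif TANTGT, which reads TACTGT in these 5 segments. These are the codons of the tyrosine and cysteine that close the last framework region before the join to D.
Ighv5-17: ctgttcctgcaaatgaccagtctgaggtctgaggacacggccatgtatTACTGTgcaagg
Ighv3-6: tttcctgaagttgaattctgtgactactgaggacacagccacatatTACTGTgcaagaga
Ighv7-3: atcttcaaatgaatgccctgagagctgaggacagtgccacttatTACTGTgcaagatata
Ighv5-6: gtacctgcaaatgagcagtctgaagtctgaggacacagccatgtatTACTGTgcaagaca
Ighv1-14: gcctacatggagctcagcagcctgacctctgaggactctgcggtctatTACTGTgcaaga
They come from chr12:113859149-113859208, chr12:114288152-114288211, chr12:114153180-114153239, chr12:113625506-113625565 and chr12:114646572-114646631. The motif TANTGT stood in the last 60 bases of 85 of the 115 V and LV genes (73.9%) and of 38 of the 70 pseudogenes (54.3%). It stood in 6.27% of the last 60 bases of all 141515 transcripts, and its reverse complement, ACANTA, in 6.8% of them. The motif was searched in any frame, and TAN also matches the stop codons TAA and TAG, so these are counts of letters. Ighv1-14, although annotated as a pseudogene, holds these letters near its end as the 4 genes do.

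B cells of all groups used many segments. Of the 185 members, 181 had a count in at least 1 B cell sample, 63 had a count in each of the 29, and the median sample had counts on 120 segments. The 10 segments with the highest mean share of the summed Ighv counts took 36% between them, and 18 segments were needed to reach 50%. Ighv5-17 had the highest mean share, 5.75% ± 1.08 (SD, n = 29), followed by Ighv3-6 with 5.05% ± 1.05 and Ighv7-3 with 4.84% ± 2.7. Next came Ighv5-4 (3.74% ± 1.74), Ighv5-16 (3.43% ± 1.41), Ighv5-6 (3.11% ± 2) and Ighv1-14 (2.79% ± 1.86). Ighv1-5 (2.56% ± 0.613), Ighv6-3 (2.45% ± 0.672) and Ighv6-6 (2.32% ± 1.03) closed the first 10. The means of neighbours in this order lie within 1 SD of each other. After division by exon length, 9 of these 10 were still among the first 10, with Ighv3-6 first and Ighv5-17 second.

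Segments near the D cluster were used most. The 61 members nearest to it held a median of 47.9% of the Ighv counts (range 42.2 to 58.1% over the 29 B cell samples). The next 62 held 29.6% (25.7 to 35.1%), and the 62 farthest away held 22.6% (14 to 29.8%). By family, Ighv1, the largest, held a median of 39.5%, Ighv5 22.3%, Ighv3 7.4% and Ighv7 5.8%. A mean share under 0.1% was seen for 82 members, of which 20 were annotated as genes. A mean share of at least 0.1% was seen for 8 of the 70 pseudogenes. Pseudogenes together held a median of 4.51% of the Ighv counts, from 0.983% in JS24 of EtOH to 10.6% in CBM2.

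**Figure D1:**
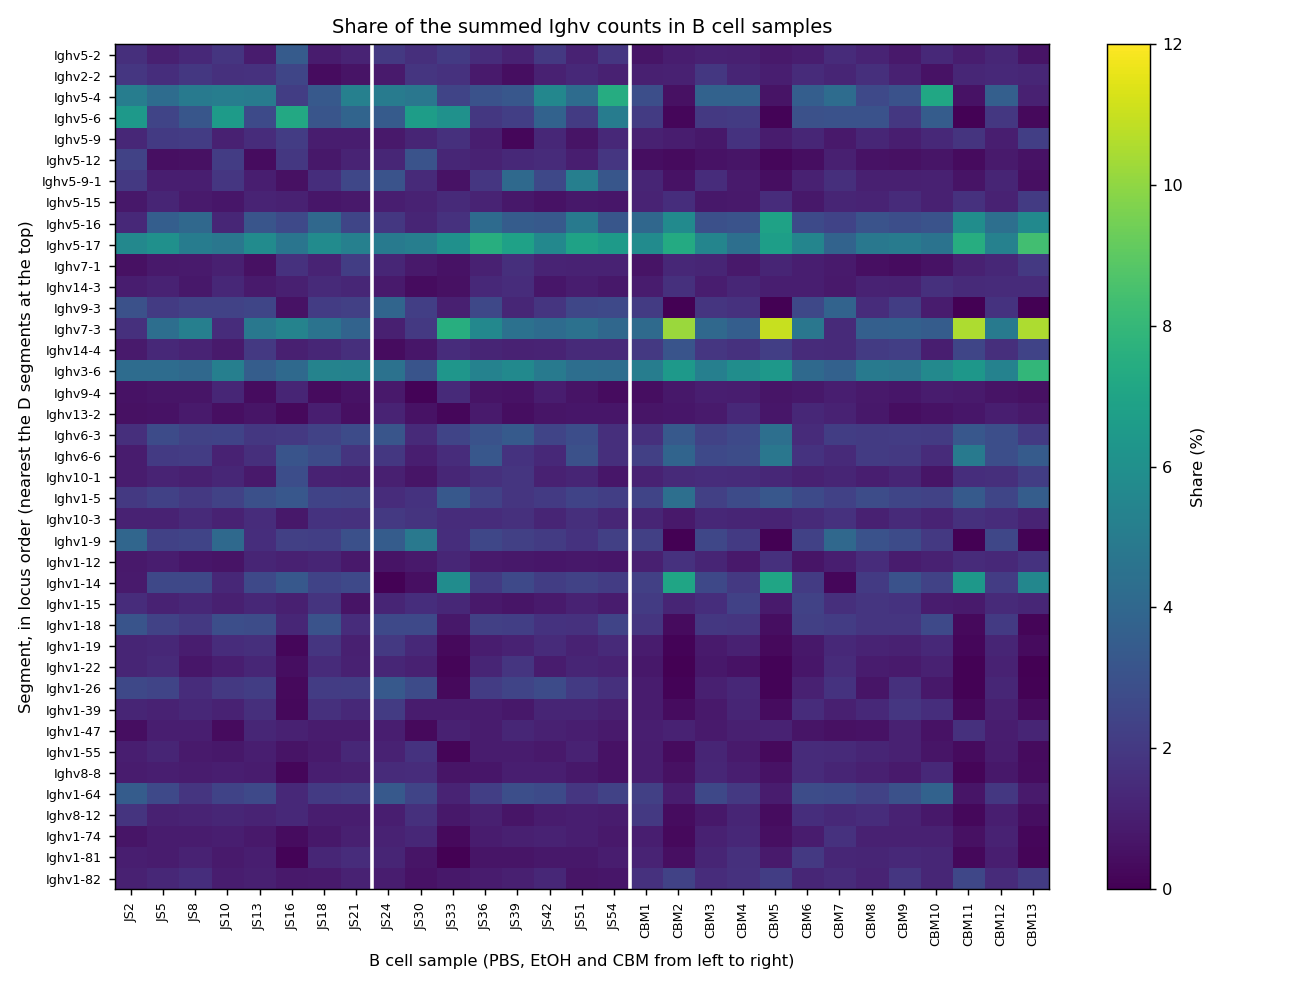
Share of the summed Ighv counts (%, colour scale) of the 40 segments with the highest mean share (rows, in locus order from the D segments) in each of the 29 B cell samples (columns, white lines between PBS, EtOH and CBM). Ighv5-17 and Ighv3-6 are bright in every column, and Ighv7-3 is brightest in CBM2, CBM5, CBM11 and CBM13, at 10.2 to 11%.

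The summed Ighv level overlapped between the 3 B cell groups. It ranged from 666 CPM (JS16) over a median of 969 to 1440 CPM (JS21) in PBS, and from 649 (JS33) over 1070 to 1351 CPM (JS24) in EtOH. In CBM it ranged from 464 (CBM10) over 996 to 1219 CPM (CBM12). The groups overlap over nearly their whole range, with means of 974 ± 233 (SD, n = 8), 1045 ± 251 (n = 8) and 976 ± 199 CPM (n = 13). Per count of Cd79a, which encodes part of the signalling unit of the antigen receptor, the medians were 0.209, 0.241 and 0.251 Ighv counts. Cd79a itself was lower in CBM than in PBS (log2 -0.34, adjusted p 0.0197, edgeR's quasi-likelihood test), so this ratio does not speak of Ighv alone.

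Evenness of segment use was given as the effective number of segments, which is the number of equally used segments that would have the same Shannon entropy. In PBS it ranged from 62.6 (JS16) over a median of 65.2 to 69 (JS13), with a mean of 65.7 ± 2.01 (SD, n = 8). In EtOH it ranged from 58 (JS33) over 61.8 to 67.7 (JS30), with a mean of 62.6 ± 3.19 (n = 8). The ranges of EtOH and PBS overlap, and the means differ by about 1 SD. In CBM it ranged from 43.5 (CBM5) over 69.4 to 74.8 (CBM8), with a mean of 62.5 ± 13.1 (n = 13). The CBM samples fell into 2 separate ranges. CBM2, CBM5, CBM11 and CBM13 had 44.9, 43.5, 43.6 and 43.5 effective segments, and the other 9 had 66.9 to 74.8. Both ranges remained when each sample was thinned to 1010 Ighv counts, the smallest number in a B cell sample, with 42.5, 41.4, 42 and 41.7 in the 4 samples and 63.3 to 71.3 in the others.

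**Figure D2:**
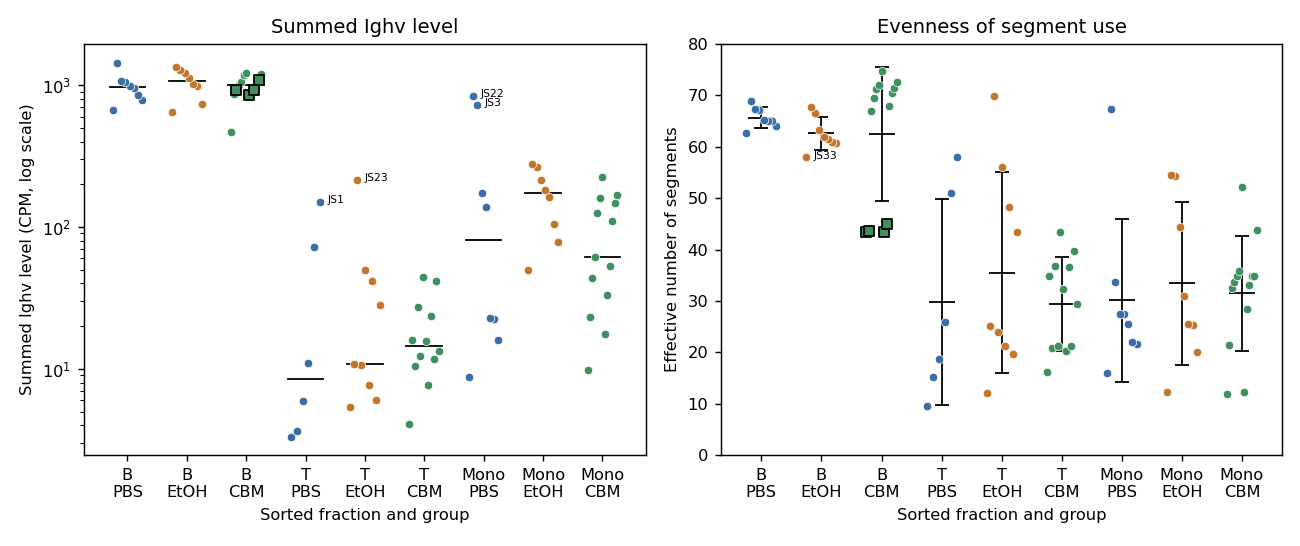
Summed Ighv level (CPM, log scale, left, line at the median) and effective number of segments (right, mean with SD) in each sample of the 9 combinations of sorted fraction and group; squares with black edges are CBM2, CBM5, CBM11 and CBM13. B cell samples hold 464 to 1440 CPM, and the 4 squares lie at 43.5 to 44.9 effective segments while all other B cell samples lie at 58 or above.

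No segment counted as expanded in any B cell sample. The rule asked for a share of at least 10% and at least 5 times the segment's median share over the 29 B cell samples. The largest share of 1 segment had a mean of 6.06% ± 0.693 in PBS, 6.68% ± 0.93 in EtOH and 7.03% ± 2.53 in CBM. Only Ighv7-3 in CBM2, CBM5, CBM11 and CBM13 reached 10%, and its highest value there, 11% in CBM5 (95% Wilson interval 10.1 to 11.9%), was 2.54 times its median share. The highest multiple among shares of at least 5% was Ighv5-9-1 in JS51 of EtOH, with 5.2% against a median of 1.22%, or 4.26 times. Wilson intervals cover counting error only, since reads without molecular identifiers are not independent molecules.

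CBM2, CBM5, CBM11 and CBM13 stood apart from the other B cell samples in the segments on which their reads were counted. Reads were aligned to GRCm38, and the mice are of an outbred stock. A count of 0 therefore speaks of reads assigned to the GRCm38 segment. Whether the alleles of these samples differ from GRCm38 was not tested. Ighv7-3 held 10.2%, 11%, 10.5% and 10.5% of their Ighv counts, against 1.07 to 7.5% in the other 25. Ighv1-14 held 7.07%, 7.05%, 6.42% and 5.54%, and among the other samples JS33 of EtOH reached 5.85%. Ighv9-3 had no count in any of the 4, among 6312, 5049, 3238 and 3843 Ighv counts, which allows a share of up to 0.0475%, 0.0594%, 0.0926% and 0.0781%. In the other 25 samples Ighv9-3 held 0.583 to 3.93%. Ighv1-9 had no count in CBM2, CBM5 and CBM11 and 2 in CBM13, against 1.57 to 4.87% in the others. Ighv5-6 held 0.19%, 0.139%, 0.0618% and 0.312%, against 1.93 to 7.26%. Ighv5-17 had 7.34%, 6.73%, 7.47% and 8.38% there, of which the last lies above the 3.8 to 7.51% of the others.

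Near-absent segments were counted by a rule set after these values were seen, as a share under 10% of the median over all B cell samples, among the 59 segments with a median of at least 0.5%. CBM2 had 13, CBM5 11, CBM11 13 and CBM13 14. JS16 of PBS had 5 and JS33 of EtOH 4. JS10, JS24 and CBM7 had 1 each, and the other 20 samples had none. Neighbours along the locus were among them. Ighv1-75, Ighv1-76 and Ighv1-78 were near-absent together in CBM2, CBM11 and CBM13 and in JS16, and Ighv1-76 and Ighv1-78 in JS33. Ighv9-1 and Ighv9-3 were near-absent together in all 4 of the CBM samples, and Ighv9-2, whose median share of 0.298% kept it outside the rule, had no count there either. The fourth member of that family, Ighv9-4, was counted at 0.776%, 0.693%, 0.865% and 0.52%, against a median of 0.693% over all B cell samples.

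The ends of the family 9 segments are shown because 3 of them had few or no counts together and 1 did not. These are the last 100 bases of the GENCODE M21 transcripts (GRCm38, minus strand), with capitals at each base that differs from Ighv9-3.
Ighv9-3: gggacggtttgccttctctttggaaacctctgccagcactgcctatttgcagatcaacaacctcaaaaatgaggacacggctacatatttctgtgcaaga
Ighv9-1: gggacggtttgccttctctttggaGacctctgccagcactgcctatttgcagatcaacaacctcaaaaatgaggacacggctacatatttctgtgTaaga
Ighv9-2: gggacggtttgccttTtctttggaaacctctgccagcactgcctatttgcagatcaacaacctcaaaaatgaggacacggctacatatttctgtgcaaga
Ighv9-4: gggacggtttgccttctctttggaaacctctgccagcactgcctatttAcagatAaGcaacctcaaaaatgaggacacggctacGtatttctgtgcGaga
They lie at chr12:114140692-114140791, chr12:114093928-114094027, chr12:114109001-114109100 and chr12:114299961-114300060. In this stretch Ighv9-1 has 2 differences from Ighv9-3, Ighv9-2 has 1 and Ighv9-4 has 5. Reads were 50 bases from each end, and of the 50-base stretches of each transcript, 70.2% in Ighv9-1, 76.5% in Ighv9-2, 76.8% in Ighv9-3 and 81.1% in Ighv9-4 occur in no other Ighv transcript. Over all 185 members the median was 82.7%, and among the 10 most used segments the lowest was 80.1% (Ighv5-4). How reads that fit several segments were counted is not given in the sources used here, so shares of close relatives are uncertain.

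**Figure D3:**
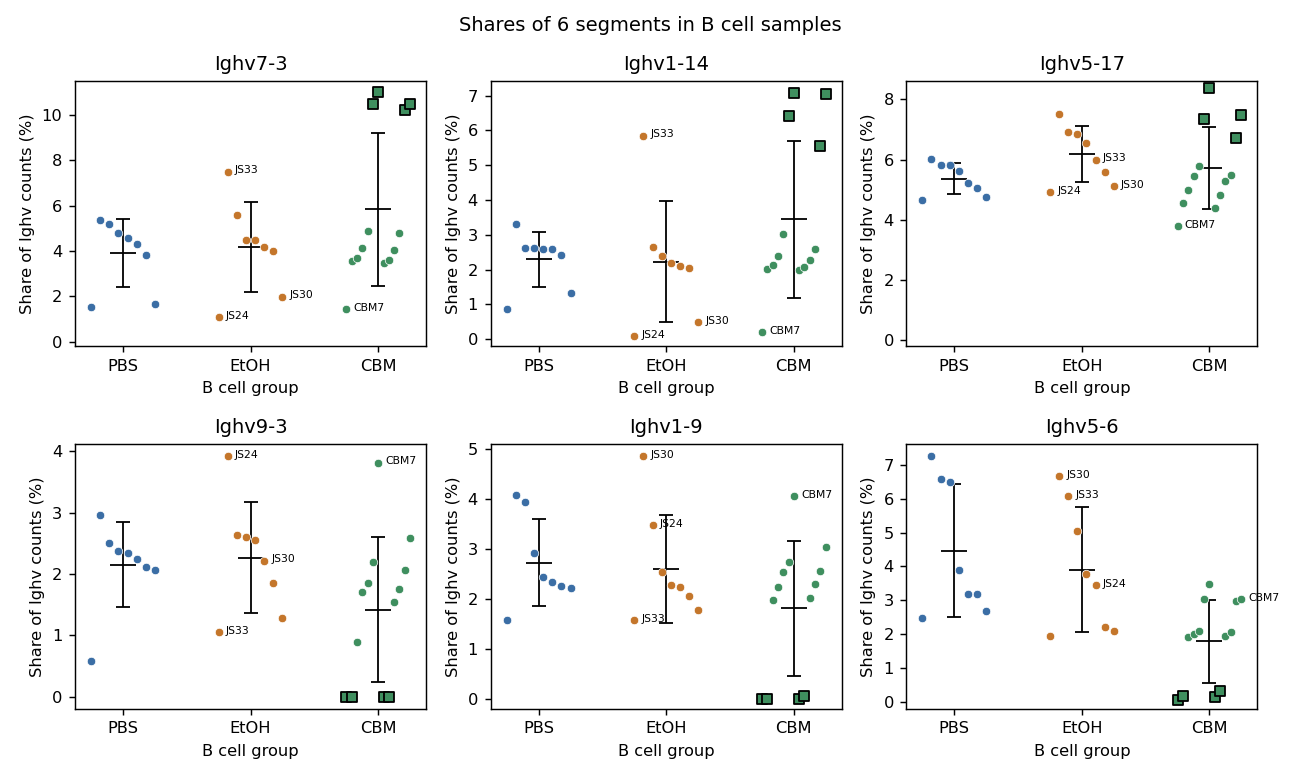
Share of the summed Ighv counts (%) of 6 segments in each B cell sample by group, with mean and SD; squares with black edges are CBM2, CBM5, CBM11 and CBM13, and CBM7, JS24, JS30 and JS33 are named. The squares lie at 10.2 to 11% for Ighv7-3 and at 0 for Ighv9-3, and CBM7, JS24 and JS30 lie at 0.209%, 0.0819% and 0.481% for Ighv1-14.

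A set of samples at the other end also stood out. Ighv1-14 held 0.0819% in JS24, 0.481% in JS30 and 0.209% in CBM7, and Ighv7-3 held 1.07%, 1.98% and 1.44% in the same 3 samples. JS2 and JS10 of PBS had 0.873% and 1.34% for Ighv1-14, and 1.67% and 1.53% for Ighv7-3. Shares of Ighv1-9 were 3.48%, 4.87% and 4.06% in JS24, JS30 and CBM7 and 3.94% and 4.09% in JS2 and JS10, above its median of 2.28%. Ighv1-14 and Ighv7-3 were therefore low, and Ighv1-9 high, in samples of all 3 groups.

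Profiles were compared by their overlap, which is the sum over segments of the smaller of both shares. CBM2, CBM5, CBM11 and CBM13 shared 86 to 90.9% with each other. Their next closest B cell sample was JS33 of EtOH, with 69.9 to 70.8%, and they shared 47.1 to 66.8% with the other 9 CBM samples. Those 9 shared 73.8 to 89.7% among themselves. The 8 PBS samples shared 67.8 to 88.4%, with a median of 77.9%, and PBS and EtOH samples shared 59.7 to 86.9%, with a median of 79.9%. The 13 B cell samples with 2 libraries show the technical spread, with an overlap of 78.2 to 90.6% between the libraries of a sample and a difference of at most 2.38 percentage points on any segment. Overlap between PBS and EtOH samples was thus as high as overlap within PBS.

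The same CBM numbers were looked up in the other sorted fractions, where the labels do not say that a number marks 1 animal. Over Ighv9-1, Ighv9-3, Ighv1-54 and Ighv1-76, the 4 segments of the rule above with at most 1 count over all 4 B cell samples, the monocyte samples CBM2, CBM5, CBM11 and CBM13 had 3 of 808, 0 of 71, 0 of 92 and 2 of 545 Ighv counts, or 0.371%, 0%, 0% and 0.367%. Counts of 0 allow up to 4.23% in CBM5 and 3.26% in CBM11. The other 9 monocyte samples of CBM had 1.05% (CBM10) to 20.4% (CBM7). The T cell samples held too few Ighv counts (34 to 157 in CBM) for such a reading, with 0 of 49, 0 of 98 and 0 of 67 in CBM2, CBM11 and CBM13 and also 0 of 59 in CBM6 and 0 of 119 in CBM12. Ighv1-14, high in B cells of these numbers, held 2.85%, 1.41%, 20.7% and 11.4% of the Ighv counts of the monocyte samples CBM2, CBM5, CBM11 and CBM13. It held 12.2%, 1.02% and 22.4% of those of the T cell samples CBM2, CBM11 and CBM13, so it was not high in all of them.

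Prenatal EtOH against PBS in B cells gave no call among the V segments. With edgeR's quasi-likelihood test and the sex label as a term, 77 members passed the filter on low counts and 108 did not. None of the 77 passed an adjusted p of 0.05, where the background was 0% of 11756 genes. Without the 4 samples that go against their sex label, 577 of 12478 genes were called (209 higher and 368 lower) and 0 of 84 members. At an unadjusted p under 0.05 there was 1 member (1.3%) against 7.69% of all genes. DESeq2 and limma voom also called 0 members, with 3 and 5 at an unadjusted p under 0.05. The median log2 fold change was -0.08 over the members and 0.01 over all genes tested.

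The member with the lowest p was Ighv12-3, a segment that in mice is known from B-1 cells binding phosphatidylcholine. Its level ranged from 2.53 over a median of 4.3 to 5.45 CPM in PBS and from 0.973 over 2.56 to 4.55 CPM in EtOH. The groups overlap, and 3 of the 8 EtOH samples lay above the PBS mean. The log2 fold change was -0.68 ± 0.26 (SE), with an adjusted p of 0.63 by edgeR's quasi-likelihood test. The other 4 lowest p-values among members with lower levels were Ighv5-9 (log2 -0.54, 0 of 8 EtOH samples above the PBS mean), Ighv1-82 (-0.46), Ighv2-9 (-0.64) and Ighv1-80 (-0.53). Among members with higher levels they were Ighv3-1 (0.65), Ighv5-9-1 (0.81), Ighv5-12 (0.51), Ighv2-6 (0.36) and Ighv5-2 (0.25). Adjusted p-values of these 10 lay between 0.63 and 0.769.

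Ighv5-9-1 had the widest spread of these within EtOH. Its level ranged from 3.45 (JS16) to 37.1 CPM (JS21) in PBS and from 3.89 (JS33) to 63.4 CPM (JS51) in EtOH. The groups overlap, and 6 of 8 EtOH samples lay above the PBS mean. The adjusted p of 0.646 (edgeR) became 0.0452 without a filter on low counts, the single setting in which a member was called. Over the 23 alternatives with a filter (edgeR, DESeq2 or limma voom), its adjusted p lay between 0.0529 and 0.941. Its log2 fold change there lay between 0.55 and 1.40.

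The 10 most used segments had log2 fold changes between -0.15 (Ighv1-5) and 0.17 (Ighv5-17) in EtOH against PBS, with standard errors of 0.16 to 0.42. For Ighv5-17 the share ranged from 4.67 over 5.41 to 6.01% in PBS and from 4.92 over 6.27 to 7.51% in EtOH. For Ighv1-14, with the largest standard error, the share ranged from 0.873 to 3.31% in PBS and from 0.0819 to 5.85% in EtOH. The spread between samples was wide for V segments, with a median biological coefficient of variation of 35.3% over the 77 members and 22.5% over all genes tested.

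CBM against PBS in B cells gave calls in 6 of the 85 members tested (7.06%), where the background was 36.2% of 14525 genes. 1 member was higher, against 16.9% of all genes, and 5 were lower, against 19.4%. In this fit the share of members called lay far below the background, which was not so in every setting. The median coefficient of variation of the members was 50.6%, against 29.2% for all genes. The median log2 fold change was -0.10 over the members and 0.06 over all genes. Among all genes 2449 were higher and 2813 lower by edgeR, and 3517 were higher and 2658 lower by DESeq2. All values of this comparison also separate batch 2 from batch 1. Summed monocyte markers had a median of 1297 CPM in B cell samples of CBM and 756 CPM in those of PBS, and neutrophil markers 241 and 109 CPM, and their part in the comparison was not tested.

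Ighv11-2, another segment known in mice from B-1 cells that bind phosphatidylcholine, had the largest fall. Its level ranged from 0.821 over a median of 3.06 to 20.8 CPM in PBS, with JS8 and JS2 (12.2 CPM) far above the others, and from 0 over 0.98 to 5.77 CPM in CBM. Every CBM sample lay below the PBS mean of 6.09 ± 6.86 CPM, although the groups overlap. The PBS median of 3.06 CPM also lay below that mean. The log2 fold change was -2.29 ± 0.63 (SE), with an adjusted p of 0.00659 by edgeR's quasi-likelihood test. It became 0.0802 without JS8, and Ighv11-2 was called in 26 of the 27 alternatives in which it was tested. Ighv11-2 was not tested with a stricter filter or with the first library only. Nor was it tested with a replicate block over the sample numbers that both groups hold. Of the 50-base stretches of Ighv11-2, 61.4% occur in no other Ighv transcript, and Ighv11-1 shares 159 of them with it.

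Ighv5-6 ranged from 20.9 over 41 to 62.1 CPM in PBS and from 0.525 over 19.4 to 36.3 CPM in CBM. Its 4 lowest values were those of CBM11, CBM5, CBM2 and CBM13 (0.525, 1.51, 1.74 and 2.88 CPM), and the other 9 CBM samples began at 16.1 CPM. The log2 fold change was -1.53 ± 0.48 with an adjusted p of 0.015 (edgeR), and -0.93 with an adjusted p of 0.00312 without those 4 samples. It was called in all 30 alternatives in which it was tested. Counts of alternatives, for this and the other called segments, leave out the fit without a filter on low counts.

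Ighv1-26 ranged from 2.16 over 18.8 to 31.5 CPM in PBS and from 0.481 over 9.5 to 21 CPM in CBM, where the same 4 samples lay at 0.481 to 1.51 CPM. Its log2 fold change was -1.38 ± 0.50 (adjusted p 0.0333, edgeR), and without the 4 samples -0.84 (adjusted p 0.0615). It was called in 25 of 30 alternatives, and the call also ended without JS2, JS5, JS13 or JS21 of PBS (adjusted p 0.0622, 0.0699, 0.0523 and 0.0616). Ighv5-12 ranged from 3.08 over 10.2 to 22.5 CPM in PBS and from 2.16 over 5.53 to 12.5 CPM in CBM, with a log2 fold change of -1.13 ± 0.36 (adjusted p 0.0167, edgeR; 0.104 without the 4). It was called in 24 of 29 alternatives. The call also ended without JS21 (adjusted p 0.0599) and without the samples that go against their sex label (0.0732). It ended too with limma voom and sample weights (adjusted p 0.0747). With a replicate block over the sample numbers that both groups hold, the adjusted p was 0.0899 (edgeR).

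Ighv5-2, the functional segment nearest to the D cluster, ranged from 7.18 over 15.2 to 22.9 CPM in PBS and from 5.77 over 8.86 to 17.5 CPM in CBM. Its log2 fold change was -0.69 ± 0.24 (adjusted p 0.0265, edgeR; 0.151 without the 4). It was called in 23 of 30 alternatives. The call also ended without JS8, JS16 or JS21 (adjusted p 0.0553, 0.0631 and 0.0508). It ended too without the samples that go against their sex label (0.0647) and with the first library only (0.0562). A replicate block over the sample numbers that both groups hold gave 0.0724. The fit without a filter on low counts, which is outside these 30, gave 0.0911 (edgeR). Ighv2-9-1 was the member that rose. It ranged from 1.77 over 4.56 to 7.14 CPM in PBS and from 3.45 over 10 to 15.3 CPM in CBM, with 11 of 13 CBM samples above the PBS mean. The log2 fold change was 0.89 ± 0.30 (adjusted p 0.0233, edgeR; 0.156 without the 4). It was called in 25 of 30 alternatives. The call also ended without JS2 or JS10 (adjusted p 0.0531 and 0.054). It ended too without the samples that go against their sex label (0.053) and with the first library only (0.05).

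**Figure D4:**
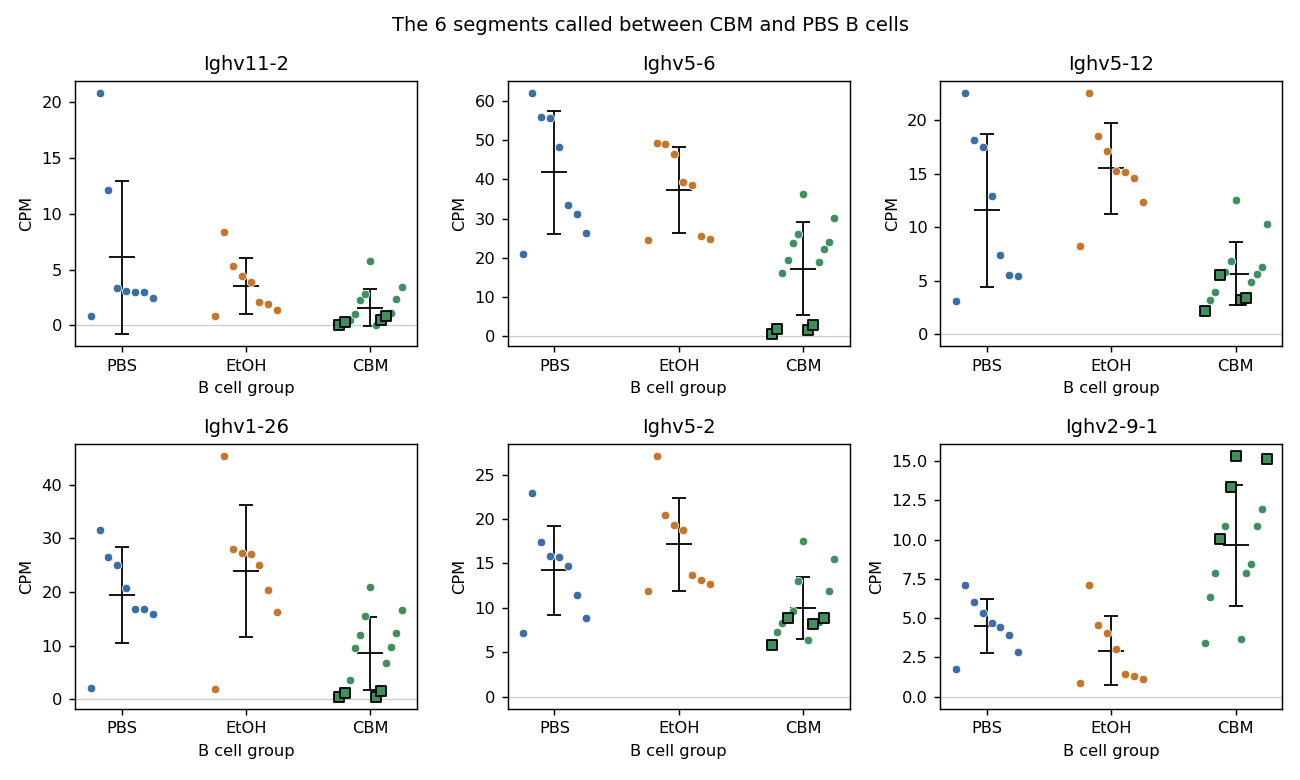
Level (CPM) of the 6 segments called between CBM and PBS in each B cell sample by group, with mean and SD; squares with black edges are CBM2, CBM5, CBM11 and CBM13, and EtOH samples are shown beside them. For Ighv5-6 and Ighv1-26 the squares lie at 0.481 to 2.88 CPM, below the other CBM samples, and Ighv2-9-1 is higher in CBM.

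Without CBM2, CBM5, CBM11 and CBM13, a setting added after the data were seen, 3 of 81 members were called. The background was 4245 of 13131 genes. All 3 members were lower. They were Ighv5-6, Ighv11-2 (log2 -1.80, adjusted p 0.0327) and Ighv5-9 (log2 -0.57, adjusted p 0.0457). The mean effective number of segments in CBM became 70.8, the mean share of the Ighv1 family 42.1% instead of 38.7%, and the mean largest share 5.47% instead of 7.03%. The summed Ighv level became 990 instead of 976 CPM. Without JS21 of PBS, 3 of 85 members were called, namely Ighv11-2, Ighv5-6 and Ighv2-9-1, where the background was 5142 of 15274 genes.

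Segments below the threshold in CBM against PBS included Ighv3-1 (log2 0.94, adjusted p 0.0563), Ighv1-82 (0.45), Ighv1-23 (0.93) and Ighv14-4 (0.43). Among the 10 most used, Ighv5-4 had a log2 fold change of -0.90 ± 0.37 with an adjusted p of 0.0574 (edgeR). Ighv7-3 and Ighv1-14 had 0.42 and 0.41 with the 4 samples and -0.16 and -0.26 without them, with an adjusted p of 0.336 and 0.677 for Ighv7-3.

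The constant genes of the heavy chain locus, which give the antibody class, were led by Ighm and Ighd, the genes of IgM and IgD on unswitched B cells. Ighm had a median of 10980 CPM in PBS, 10245 in EtOH and 10431 in CBM, and Ighd 2779, 2379 and 3733 CPM. Ighd was higher than the PBS mean in 13 of 13 CBM samples, with a log2 fold change of 0.30 ± 0.13 and an adjusted p of 0.0714 (edgeR). Igha had medians of 194, 87.5 and 170 CPM, with the highest value of EtOH in JS33 (338 CPM). Of the 8 constant genes, 0 of the 5 tested in EtOH against PBS and 0 of the 6 tested in CBM against PBS were called by edgeR's quasi-likelihood test, with 1 and 2 at an unadjusted p under 0.05. The 1 in EtOH was Ighg2b (log2 -1.40 ± 0.45, adjusted p 0.63), with 0 of 8 EtOH samples above the PBS mean. JS33 was also the highest EtOH sample for Ighg2b (46.7 CPM) and Ighg3 (174 CPM).

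Genes that act on the locus or on the B cell receptor were counted as a list of 29. In EtOH against PBS, 0 of the 24 tested were called by edgeR, with 2 at an unadjusted p under 0.05 (Irf4 and Btk) and a median log2 fold change of 0.07. In CBM against PBS, 5 of the 28 tested were higher and 7 lower, with a median log2 fold change of 0.11, against 16.9% and 19.4% of all genes. The higher ones were Irf4 (log2 1.02), Pax5 (0.93), Yy1 (0.77), Pou2f2 (0.76) and Ikzf1 (0.59), transcription factors of B cells or of the locus. Among the lower ones were Eed (-0.99), Ctcf (-0.81), Blnk (-0.77), Rad21 (-0.74), Lyn (-0.35) and Cd79a (-0.34). Ctcf and Rad21 encode the insulator protein and a cohesin subunit that fold the locus during V joining, and Blnk, Lyn and Cd79a act in receptor signalling.

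Ighv counts in the other sorted fractions were fewer. T cell samples held a median of 8.47 CPM in PBS, 10.9 in EtOH and 14.5 in CBM, with high values in JS1 (151 CPM) and JS20 (72 CPM) of PBS and JS23 (216 CPM) of EtOH. JS1 also held the highest summed B cell markers of its group, 1923 CPM against a median of 88.3, and in JS1 and JS20 there were 0.242 and 0.298 Ighv counts per Cd79a count, close to the B cell samples. JS23 had 71 Ighv counts and the lowest depth of all samples. In the T cell samples of CBM pseudogenes held a median of 23.8% of the Ighv counts, against 5.12% in the B cell samples of CBM. Ighv10-2 and Ighv2-6 led several of them, with 7 of 49 Ighv counts in CBM2 for the first and 12 of 59 in CBM6 for the second.

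In most monocyte samples the Ighv counts were spread over fewer effective segments than in B cells. The exception in PBS was JS14, with 67.3 effective segments from 183 counts. Fewer counts lower this number, and monocyte samples, with 71 Ighv counts in CBM5 for example, were not compared with B cells at equal depth. The level ranged from 8.8 (JS9) over a median of 80.4 to 845 CPM (JS22) in PBS, from 49.9 over 173 to 276 CPM in EtOH and from 9.75 over 61.6 to 226 CPM in CBM. JS22 and JS3 (730 CPM) of PBS reached the range of B cells. There were between 0.421 and 33 Ighv counts per Cd79a count in the monocyte samples, against 0.131 to 0.321 in the B cell samples. Igha reached 5149 CPM in JS3 and 3059 CPM in JS22, and Jchain, which joins IgA and IgM into polymers and marks plasma cells, 1907 and 1166 CPM. The 7 plasma cell markers summed to between 215 (JS17) and 2759 CPM (JS3) in the monocyte samples of PBS and to between 392 and 595 CPM in the B cell samples of PBS, and none of the markers was at 0 in all samples of a group. Their part in the Ighv counts of the monocyte fraction was not tested.

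**Figure D5:**
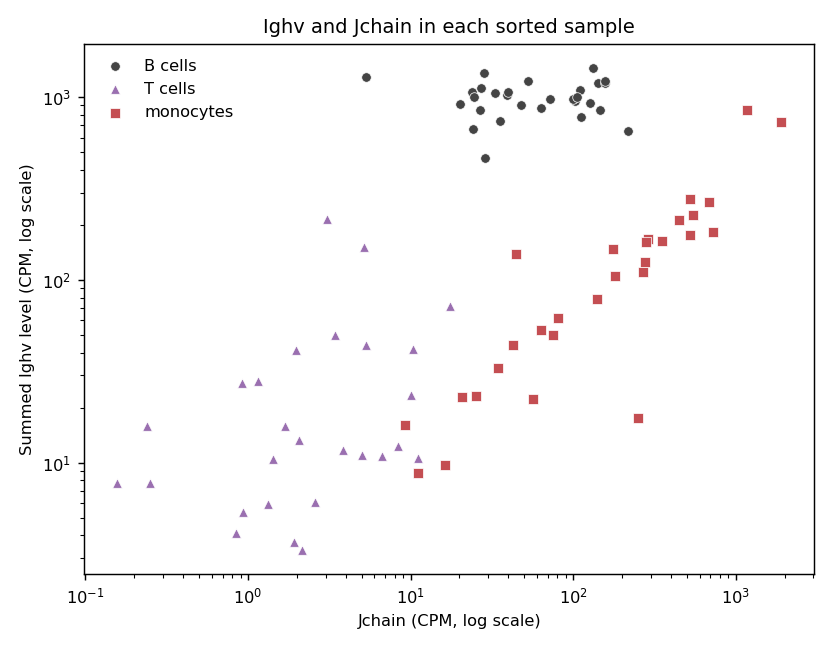
Summed Ighv level (CPM, log scale) against Jchain (CPM, log scale) in each of the 29 B cell, 27 T cell and 29 monocyte samples. The monocyte samples JS3 and JS22 lie highest on both axes among monocytes, with 1907 and 1166 CPM of Jchain beside 730 and 845 CPM of Ighv, and B cell samples lie between 464 and 1440 CPM of Ighv.

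Different segments led in different monocyte samples. Among samples with over 1000 Ighv counts, the effective number was 33.8 in JS3, 21.6 in JS22, 12.3 in JS52, 25.4 in JS55 and 43.9 in CBM8. All lay below the 58 to 74.8 of the 25 B cell samples other than CBM2, CBM5, CBM11 and CBM13. The value of CBM8 lay within the range of the B cell samples CBM2, CBM5, CBM11 and CBM13. JS52 of EtOH had 23.8% of its Ighv counts on Ighv9-3 (95% Wilson interval 21.4 to 26.4%) and 21.4% on Ighv5-9-1. JS22 of PBS had 16% on Ighv3-6 (14.7 to 17.5%), 14.2% on Ighv5-9-1 and 11.3% on Ighv1-19. JS55 of EtOH had 15.7% on Ighv1-85 (13.8 to 17.7%), a segment with a median share of 0.44% in B cells. CBM3 had 24.7% on Ighv1-81 (20.3 to 29.7%).

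By the rule used for B cells, 6 segments were expanded in 4 of 8 PBS, 8 in 5 of 8 EtOH and 10 in 8 of 13 CBM monocyte samples, against 0 in all 29 B cell samples. One of the 4 PBS samples is JS17, which has the T cell profile named above and 14 of 88 counts on Ighv5-16. Several of these rest on few counts, such as Ighv5-16 in CBM5 with 22 of 71. T cell samples also had expanded segments, with 3 in 2 of 6 PBS, 7 in 3 of 9 EtOH and 10 in 7 of 12 CBM samples. Some of those rest on fewer counts, such as Ighv2-7 in JS4 with 2 of 17. The rule takes its median shares from B cells, so it does not compare the fractions evenly. Monocyte samples of CBM shared 9.36 to 49.6% of their profile with each other, and 31.9 to 60% (median 46.8%) with the B cell sample of the same number. With B cell samples of other numbers the median was 42.6% (range 12.3 to 61.7%), and for 3 of 13 the closest B cell sample had the same number.

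Among CBM samples, edgeR's quasi-likelihood test tested 50 members between B and T cells and 51 between B cells and monocytes. These passed the filter through their level in B cells, so their counts of calls are not read as results. All 50 were called higher in B cells than in T cells, where the background was 42.7% of 14703 genes, and 50 of 51 higher than in monocytes, where it was 55.4% of 14095 genes. For Ighv5-17 no T cell or monocyte sample of CBM reached the lowest B cell sample, and for Ighv1-14 the ranges overlapped in both comparisons.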

How the data were processed

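RNA of sorted blood cells was sequenced as paired reads of 50 bases, per the labels' protocols. Reads were aligned to GRCm38 with HISAT2 2.1.0 and counted with HTSeq 0.11.2, per the submitters' processing notes, and the authors deposited raw counts per gene for 124 libraries. The notes name GRCh38 for the annotation, yet 99.6% of identifiers matched mouse GENCODE M21. 3 lines that name no gene were left out. Both libraries of a sample were summed, CPM was taken over all gene counts, and shares over the Ighv counts. A count of 0 was given as an upper limit of 3 counts, and single-sample shares have 95% Wilson intervals. Counts were tested with edgeR 4.0.16 (TMM, filterByExpr with a minimum count of 10, quasi-likelihood test, Benjamini-Hochberg over all genes at 0.05, sex label as a term) in R 4.3.3. Alternatives used DESeq2 1.42.0, limma 3.58.1 and other filters and samples. On simulated data for EtOH against PBS in B cells with 11550 genes, 96 of 100 genes changed by 1 (log2) and 100 of 100 changed by 2 were recovered, with 9 false calls. Changes were placed only in genes above the median level. V segments had a median biological coefficient of variation of 35.3%, against 22.5% over all genes tested. The recovery therefore does not speak for V segments. Named segments were the 10 with the highest mean share, any expanded segment and the 5 lowest p-values in each direction. Members and lists were chosen with earlier results of these data known. Sequences and coordinates are from GENCODE M21.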

Additional observations from a re-analysis of the deposited data

Results flagged for a closer look

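Dixon's test at the 95% level was applied to groups of 4 to 10 samples, where chance gives about 1 in 20, and 6 of 44 tests were past it. In PBS B cells, JS16 had the lowest share of the Ighv1 family, 31%, against 38.5% for the next. In EtOH B cells, JS33 had the highest share of Ighv1-14, 5.85%, against 2.66%; both samples go against their sex label. In PBS T cells, JS4 had the highest share of 1 segment, 23.5%, from 4 of 17 counts. In EtOH T cells, JS23, the sample of lowest depth, had the highest Ighv level, 216 CPM, against 49.9 CPM. In PBS monocytes, JS14 had the highest effective number of segments, 67.3, against 33.8. In EtOH monocytes, JS52 had the lowest share of the Ighv1 family, 17.5%, against 38.4%.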

How the results depend on the processing

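Of 298 alternative values for 19 results, 280 stayed within 1.5 times a reported count or within 1 SD of a reported group mean, and 18 moved further. Leaving out 1 sample cannot move a group mean by 1 SD, and a count of 0 cannot rise under a stricter cut-off. Those values were bound to stay, so the 280 is no measure of stability. Group means and counts have no sign, yet the order of CBM and PBS in the mean effective number of segments turned without CBM2, CBM5, CBM11 and CBM13, from 62.5 to 70.8 against 65.7. In EtOH against PBS, 1 of 175 members was called without a filter on low counts, against 200 of 46736 genes. Every fit that left out 1 sample called 0 members and 0 genes. In CBM against PBS, 25 of 85 members were called with limma voom and sample weights, against 6517 of 14525 genes. The first library only gave 3 of 80 members (4722 of 13349 genes). Without CBM2, CBM5, CBM11 and CBM13 it was 3 of 81 (4245 of 13131 genes). With 1 sample left out, 3 to 9 members were called (4421 to 6192 genes), where the 3 came without JS21. Between B and T cells, 117 members were called without a filter, 17 with a stricter one and 32 to 56 with 1 sample left out, with 32 to 39 when it was a B cell sample and 56 when it was a T cell sample. Between B cells and monocytes, 110 were called without a filter and 13 with a stricter one. Filters change how many members are tested. Between B and T cells, every member tested was called in each fit that left out 1 sample. The 32 to 56 there are thus the numbers of members past the filter. The cause of the other differences was not tested. The mean effective number of segments in PBS was 61.7 over segments with a mean share of at least 0.1% and 63 at equal depth, and in EtOH 58.6 over those segments. With the CBM number as a replicate block, 50 members were called between B and T cells and 51 between B cells and monocytes. Deviations of same-numbered samples had a median correlation of 0.26 (-0.243 to 0.572, 8 of 12 over 0.1) between B and T cells and of 0.214 (-0.109 to 0.658, 9 of 13 over 0.1) between B cells and monocytes, and the own number was closest in 5 and 6. Not every pair was over 0.1 and the labels name no shared animal, so the numbers were not taken as pairs, and whether they mark 1 animal is not known. PBS and CBM B cells both hold the numbers 2, 5, 8, 10 and 13 under different prefixes, with a median correlation of 0.0396 (2 of 5 over 0.1, the own number closest in 0). A replicate block over these 10 samples, added after seeing the data and holding CBM2, CBM5 and CBM13, called 25 of 80 members. It called 3367 of 12676 genes, so there the share of members lay above the background. No paired analysis was possible between PBS and EtOH B cells because they share no numbers. Depth limits the T cell fraction most, where 17 to 843 Ighv counts stand behind each profile.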
